A study of Homo sapiens with 6 samples.

Results

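The genes examined here encode the mitochondrial carriers of the SLC25 family. They were taken as every row of the expression table whose gene symbol starts with SLC25A, which gave 47 of the 16570 genes in the table. Of these 47 genes, 39 averaged at least 1 FPKM across the 6 samples and were tested. FPKM counts fragments relative to transcript length and to the mapped fragments of a library, so it can be set side by side between genes.

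RNA sequencing compared BR-shSPANXB1 cells (3 samples) with BR-shCON cells (3 samples), which are all the samples of the series. BR is MDA-MB-231BR, a brain-seeking variant of the human breast cancer line MDA-MB-231. BR-shSPANXB1 cells carry a lentiviral vector with a short hairpin RNA against SPANXB1, a cancer-testis gene on the X chromosome, and BR-shCON cells carry the empty vector. Both were selected with puromycin as stable lines and stood on 1 parental line and 1 hairpin sequence. No source used here says whether the lines were clones or pools. The comparison asked which transcripts differ once SPANXB1 is silenced in cells that seed the brain.

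SLC25 proteins sit in the inner membrane of the mitochondrion, with a few members in the outer membrane or in peroxisomes. Most exchange or transport a small molecule that cannot cross the membrane by itself, such as ADP and ATP, phosphate, citrate, amino acids, carnitine esters, cofactors, nucleotides or iron. The carriers thus tie the enzymes of the matrix to those of the cytosol, and tumor cells use them to move citrate, aspartate and glutamate between the compartments.

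SPANXB1 had 232, 260 and 248 FPKM in BR-shSPANXB1 cells, against 445, 563 and 515 FPKM in BR-shCON cells. The silencing thus showed in every sample, and the log2 fold change, BR-shSPANXB1 over BR-shCON, was -1.11 with a standard error (SE) of 0.0545 (adjusted p = 1.8e-14). Here and below the test is the quasi-likelihood test of edgeR, with p-values adjusted over all genes tested by the Benjamini-Hochberg method. Reads may be shared among the near-identical SPANX genes. The 6 libraries held 16294462 to 16666167 counts each. A list of 7 markers of breast epithelium, basal or mesenchymal-like, held VIM, CD44, KRT8, KRT18, ITGB1, ANXA1 and CAV1. All were above 1 FPKM, summing to 4362 to 4506 FPKM in BR-shSPANXB1 cells and 4248 to 4291 FPKM in BR-shCON cells. Since the list includes the keratins KRT8 and KRT18, its sum does not by itself measure basal or mesenchymal identity. Of 6 luminal markers 2 reached 1 FPKM, with sums of 12.2 to 13.7 FPKM in BR-shSPANXB1 cells and 12.9 to 15.8 FPKM in BR-shCON cells. The luminal markers that reached 1 FPKM were EPCAM and FOXA1. CDH1, of the same list, and the leukocyte marker PTPRC each averaged at most 0.02 FPKM over the 6 samples. Of 4 endothelial markers 1 reached 1 FPKM, PECAM1 at a mean of 1.05 FPKM, with sums of 1.06 to 1.57 FPKM in BR-shSPANXB1 cells and 0.84 to 1.21 FPKM in BR-shCON cells. MBP, listed as a neural marker, had a mean of 31.5 FPKM, with the neural list summing to 31.2 to 31.8 FPKM in BR-shSPANXB1 cells and 31.7 to 33.3 FPKM in BR-shCON cells. In bulk RNA, fewer cells of a kind and less RNA per cell cannot be told apart.

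Summed over the family, the levels of the groups overlapped. The summed FPKM of the 47 genes was 1067, 1055 and 1034 in BR-shSPANXB1 cells, against 1061, 1075 and 1022 in BR-shCON cells. The means were 1052 ± 16.8 FPKM in BR-shSPANXB1 cells and 1053 ± 27.5 FPKM in BR-shCON cells (SD, n = 3 each). Within this sum SLC25A25 and SLC25A27 rose, SLC25A23 and SLC25A36 fell, and 35 of the 39 tested members did not pass the test at an adjusted p of 0.05. The members called made up 10.3% of those tested, beside 13.8% of all 11439 genes tested (higher in BR-shSPANXB1 cells for 6.82% and lower for 6.98%). The share of carriers called was therefore near that of genes at large.

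The shifts were small. The log2 fold change was positive for 16 members and negative for 23, with a median of -0.02 and a median size of 0.08, against a median of 0.00023 and a median size of 0.08 over all genes tested. Over all genes tested it was positive for 5728 and negative for 5705. Its size was under 0.2 for 35 of the 39 members. An unadjusted p under 0.05 was reached by 11 members and by 3073 of all genes tested. No member met the criteria of the study (adjusted p under 0.05, log2 fold change over 0.59 in size and a control FPKM over 1), which 0.621% of the genes met. With 3 samples a group, an exact permutation test cannot give a p under 0.1.

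The same replicate numbers stand in both groups, and same-numbered samples deviated together, so a second fit took the replicate number as a block. In that fit 25.7% of all genes were called, and among the members 4 were called higher in BR-shSPANXB1 cells and 5 were called lower. SLC25A24 (adjusted p = 0.0096) and SLC25A28 (adjusted p = 0.023) joined the higher members under the block. SLC25A32 (adjusted p = 0.015), SLC25A3 (adjusted p = 0.033) and SLC25A12 (adjusted p = 0.038) joined the lower ones. These blocked values come from edgeR with adjustment over all genes.

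**Figure D1:**
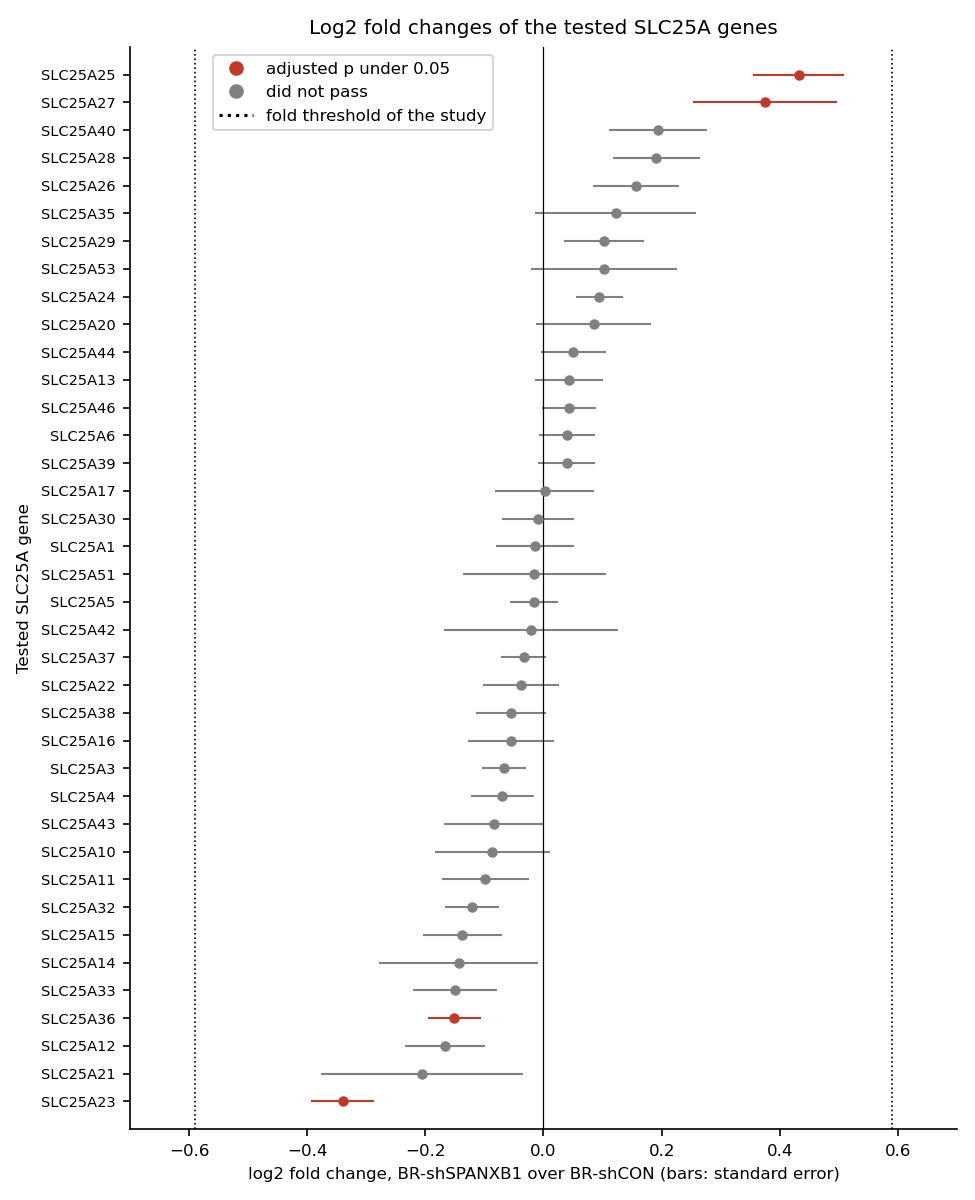
Log2 fold changes of 38 of the 39 tested SLC25A genes, BR-shSPANXB1 over BR-shCON, from edgeR, with bars for the standard error. The 4 genes with an adjusted p under 0.05 are in red, SLC25A25 and SLC25A27 to the right and SLC25A36 and SLC25A23 to the left, and all points lie inside the dotted lines at 0.59 on either side of 0.

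SLC25A23 and SLC25A25, which moved in opposite directions, are close relatives. Both encode calcium-regulated carriers that exchange ATP-Mg for phosphate, also called SCaMC-3 and SCaMC-2, and thereby set the adenine nucleotide content of the matrix. SLC25A23 lies on the minus strand at chr19:6436079-6465203 and SLC25A25 on the plus strand at chr9:128068201-128109245 (GRCh38, GENCODE v29). Their promoters are shown because these were the members that passed under every alternative tried. The windows run from 250 bases before to 50 bases after a transcription start (RefSeq, GRCh38.p14), read 5′ to 3′ on the strand of the gene, and the capitals mark a match to CCGGAAG, the core bound by ETS factors such as GABPA. SLC25A23 has 1 start in the table, at chr19:6459743-6460042 on the minus strand, and SLC25A25 has 3, at chr9:128067982-128068281, chr9:128091205-128091504 and chr9:128098257-128098556 on the plus strand.
SLC25A23: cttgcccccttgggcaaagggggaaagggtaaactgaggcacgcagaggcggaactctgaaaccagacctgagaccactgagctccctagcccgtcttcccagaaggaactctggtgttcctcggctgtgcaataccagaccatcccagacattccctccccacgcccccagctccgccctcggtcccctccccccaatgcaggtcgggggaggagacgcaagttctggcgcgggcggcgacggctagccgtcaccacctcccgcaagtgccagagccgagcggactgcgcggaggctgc
SLC25A25, upstream start: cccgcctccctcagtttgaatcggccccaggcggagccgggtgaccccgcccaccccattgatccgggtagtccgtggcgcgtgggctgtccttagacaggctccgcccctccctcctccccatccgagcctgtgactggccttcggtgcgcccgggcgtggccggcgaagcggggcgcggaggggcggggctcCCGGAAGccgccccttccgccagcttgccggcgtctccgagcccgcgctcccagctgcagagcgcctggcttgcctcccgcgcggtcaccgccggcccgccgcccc
SLC25A25, middle start: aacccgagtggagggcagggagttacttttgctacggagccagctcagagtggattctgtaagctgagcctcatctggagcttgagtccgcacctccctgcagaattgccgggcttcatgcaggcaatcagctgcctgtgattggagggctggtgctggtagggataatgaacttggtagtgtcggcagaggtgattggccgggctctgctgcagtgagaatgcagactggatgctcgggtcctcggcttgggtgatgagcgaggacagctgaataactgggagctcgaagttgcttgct
SLC25A25, downstream start: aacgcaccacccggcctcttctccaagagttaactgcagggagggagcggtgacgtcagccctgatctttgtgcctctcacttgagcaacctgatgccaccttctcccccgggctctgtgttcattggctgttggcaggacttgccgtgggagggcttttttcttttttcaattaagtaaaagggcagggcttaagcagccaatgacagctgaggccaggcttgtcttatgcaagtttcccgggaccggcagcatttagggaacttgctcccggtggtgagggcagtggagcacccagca

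The promoter windows differed in base composition. G and C made up 65.7% of the SLC25A23 window and 76.3%, 56.7% and 56.0% of the windows at the upstream, middle and downstream start of SLC25A25. The ETS core occurred once, in the upstream window of SLC25A25, at bases 195 to 201 of the 300. Promoter windows were used for 39 of the 47 genes, 49 windows in all, with a median of 66.0% G and C against 58.7% over all windows of the genome. Members on chromosome 8 were left out, a rule not applied to the windows of all genes. On either strand, CCGGAAG was found for 10 of these 39 genes, or 25.6%, against 12.2% of all 27195 genes with a window, expressed or not. No share was taken over expressed genes alone. SLC25A4, SLC25A14, SLC25A17, SLC25A20, SLC25A22, SLC25A24, SLC25A26, SLC25A38 and SLC25A46 were the others that carried it. GCGCANGCG, the NRF1 motif, was found for 5 genes (12.8%, against 9.05% of all genes) and AANATGGC, bound by YY1, for 3 (7.69%, against 7.97%). TCACNCCAC, bound by SREBP, was found for SLC25A40 alone (2.56%, against 1.39%). TNAAGGTCA, bound by ESRRA, and TGATGNAAT, bound by ATF4 with CHOP, were in no window of the members and in 1.17% and 1.22% of all genes. None of these motifs overlaps another in the windows printed, and a match describes letters only.

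SLC25A23 had 24.2, 21.8 and 20.1 FPKM in BR-shSPANXB1 cells, against 28.7, 28.0 and 26.5 FPKM in BR-shCON cells. Every BR-shSPANXB1 sample lay below every BR-shCON sample. The log2 fold change was -0.34 (SE 0.0536, adjusted p = 4.8e-05, edgeR), on 959 to 1104 counts in BR-shSPANXB1 cells and 1231 to 1347 counts in BR-shCON cells. None of its exonic bases is shared with another annotated gene.

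SLC25A25 had 7.45, 7.21 and 7.98 FPKM in BR-shSPANXB1 cells, against 5.52, 5.16 and 5.89 FPKM in BR-shCON cells. The groups did not overlap. The log2 fold change was 0.43 (SE 0.0770, adjusted p = 0.00023, edgeR), on 366 to 397 counts in BR-shSPANXB1 cells and 260 to 296 counts in BR-shCON cells. Genes on the opposite strand (SLC25A25-AS1, AL360268.1 and NAIF1) share 16.2% of its exonic bases, and since no step that marks strand is named, their reads cannot be told apart there.

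SLC25A24 (SCaMC-1), the most abundant ATP-Mg/phosphate carrier, had 47.3, 44.1 and 46.9 FPKM in BR-shSPANXB1 cells, against 43.4, 42.5 and 42.5 FPKM in BR-shCON cells. The samples did not overlap, but the log2 fold change of 0.09 (SE 0.0397) did not pass (adjusted p = 0.12, edgeR) outside the blocked fit. Gene models on the opposite strand share 13.7% of its exonic bases. The sum over SLC25A23, SLC25A24, SLC25A25 and SLC25A41 overlapped between the groups, at 79.0, 73.2 and 75.0 FPKM in BR-shSPANXB1 cells and 77.8, 75.8 and 74.9 FPKM in BR-shCON cells.

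The shares within that sum lay apart. SLC25A23 gave 29.1% ± 2.0 of the subfamily FPKM in BR-shSPANXB1 cells and 36.4% ± 0.900 in BR-shCON cells (SD, n = 3 each). SLC25A24 gave 60.9% ± 1.46 in BR-shSPANXB1 cells and 56.2% ± 0.458 in BR-shCON cells. SLC25A25 gave 9.97% ± 0.615 in BR-shSPANXB1 cells and 7.25% ± 0.544 in BR-shCON cells. For each of these carriers the shares of the groups did not overlap, and the two-sided exact permutation test gave its smallest possible p, 0.1. In all 12 shares were compared in 4 subfamilies, and this p was 0.13 after Benjamini-Hochberg adjustment over them. Shares within a subfamily add up to the whole and are not independent of each other.

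The ADP/ATP carriers swap matrix ATP for cytosolic ADP, and SLC25A5 among them held the highest level of the family. SLC25A5 (ANT2), the form common in dividing cells, had 256, 251 and 243 FPKM in BR-shSPANXB1 cells, against 253, 258 and 236 FPKM in BR-shCON cells. SLC25A6 (ANT3), expressed widely, had 97.4, 94.0 and 88.7 FPKM in BR-shSPANXB1 cells, against 91.9, 93.2 and 83.6 FPKM in BR-shCON cells. In both genes the groups overlapped, and the log2 fold changes were -0.02 for SLC25A5 (adjusted p = 0.84, edgeR) and 0.04 for SLC25A6 (adjusted p = 0.64, edgeR). SLC25A5 shares 15.1% of its exonic bases with SLC25A5-AS1 on the opposite strand.

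SLC25A4 (ANT1), the form of heart and muscle, stood at 10.1, 10.3 and 10.2 FPKM in BR-shSPANXB1 cells, against 10.6, 10.7 and 10.5 FPKM in BR-shCON cells. Its samples did not overlap, yet the log2 fold change of -0.07 (SE 0.0538) did not pass (adjusted p = 0.44, edgeR). As shares of the ADP/ATP carriers, SLC25A5 had 70.7% ± 0.318 in BR-shSPANXB1 cells and 71.3% ± 0.161 in BR-shCON cells, and SLC25A6 had 26.4% ± 0.423 in BR-shSPANXB1 cells and 25.6% ± 0.276 in BR-shCON cells (SD, n = 3 each, two-sided exact permutation p = 0.1 for both). The testis form SLC25A31 (ANT4) had under 10 counts in every sample.

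SLC25A3, the phosphate carrier that supplies ATP synthase, was second in level. It had 130, 127 and 130 FPKM in BR-shSPANXB1 cells, against 131, 138 and 132 FPKM in BR-shCON cells. The groups did not overlap, and the log2 fold change was -0.07 (SE 0.0375, adjusted p = 0.26, or 0.033 under the replicate block, edgeR). Together SLC25A5, SLC25A3 and SLC25A6 made up 44.6 to 45.3% of the family's FPKM in BR-shSPANXB1 cells and 44.2 to 45.5% in BR-shCON cells. Of the 7 tested carriers of adenine nucleotides and phosphate, 1 rose and 1 fell, with a median log2 fold change of -0.02. That is 28.6% called in a short class, beside 13.8% of all genes tested.

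**Figure D2:**
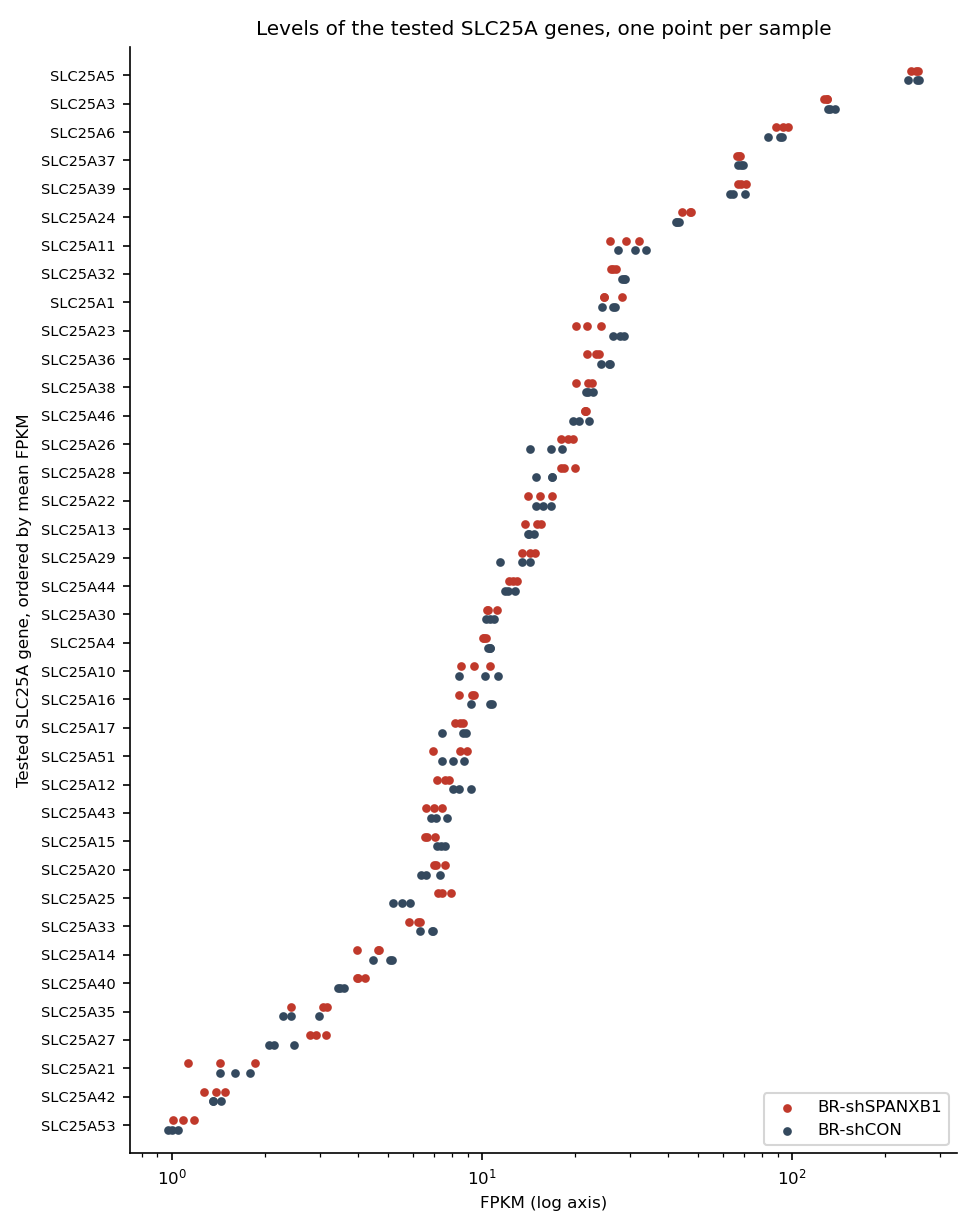
FPKM of 38 of the 39 tested SLC25A genes in each sample on a log axis, with BR-shSPANXB1 in red above BR-shCON in dark grey, ordered by the mean over the 6 samples. SLC25A5 leads at 236 to 258 FPKM and SLC25A53 is lowest at 0.97 to 1.18 FPKM, and in most rows the red and grey points overlap.

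None of the 7 tested carriers of citrate, dicarboxylates, aspartate and glutamate passed with edgeR without the replicate block, DESeq2 or limma (SLC25A12 had an unadjusted p under 0.05 with edgeR and passed under the block), and their median log2 fold change was -0.09, with 6 of 7 negative. SLC25A11, the oxoglutarate/malate carrier of the malate-aspartate shuttle, had 29.2, 32.3 and 26.0 FPKM in BR-shSPANXB1 cells, against 27.5, 33.8 and 31.2 FPKM in BR-shCON cells. SLC25A1, the citrate carrier that feeds cytosolic acetyl-CoA synthesis, had 28.4, 24.8 and 24.8 FPKM in BR-shSPANXB1 cells, against 26.8, 26.6 and 24.5 FPKM in BR-shCON cells. Both genes overlapped between the groups, with log2 fold changes of -0.10 for SLC25A11 (adjusted p = 0.43, edgeR) and -0.01 for SLC25A1 (adjusted p = 0.92, edgeR).

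The aspartate/glutamate carriers form the other arm of the malate-aspartate shuttle. SLC25A12 (aralar) had 7.59, 7.87 and 7.17 FPKM in BR-shSPANXB1 cells, against 9.22, 8.06 and 8.44 FPKM in BR-shCON cells, with no overlap. Its log2 fold change was -0.17 (SE 0.0680, adjusted p = 0.10, or 0.038 under the replicate block, edgeR). SLC25A13 (citrin) had 13.8, 15.1 and 15.6 FPKM in BR-shSPANXB1 cells, against 14.2, 14.1 and 14.7 FPKM in BR-shCON cells, and the groups overlapped. Of their summed FPKM, SLC25A12 gave 33.7% ± 1.98 in BR-shSPANXB1 cells and 37.4% ± 1.71 in BR-shCON cells (SD, n = 3 each, two-sided exact permutation p = 0.1). The glutamate carrier SLC25A22 and the dicarboxylate carrier SLC25A10 had log2 fold changes of -0.04 and -0.09. SLC25A21, the oxodicarboxylate carrier, had a mean of 1.47 FPKM in BR-shSPANXB1 cells and 1.61 FPKM in BR-shCON cells, and its log2 fold change of -0.21 did not pass (adjusted p = 0.48, edgeR). That value was -0.41 without BR-shSPANXB1 replicate 1 and -0.0078 without BR-shSPANXB1 replicate 2, and genes on the opposite strand share 28.8% of its exonic bases. SLC25A10 shares 46.6% of its exonic bases with the gene model AC139530.2 on the same strand, so its value is uncertain.

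Carriers of other amino acids, carnitine, S-adenosylmethionine and glutathione gave no call among 8 tested genes with edgeR, DESeq2 or limma (2 had an unadjusted p under 0.05 with edgeR), with 6 positive and a median of 0.07 for the log2 fold change. SLC25A39, which imports glutathione, had 68.5, 71.4 and 67.2 FPKM in BR-shSPANXB1 cells, against 70.8, 64.8 and 63.4 FPKM in BR-shCON cells. SLC25A38, the glycine carrier needed for heme synthesis, had 20.1, 22.8 and 22.0 FPKM in BR-shSPANXB1 cells, against 22.0, 21.7 and 22.9 FPKM in BR-shCON cells. In both the groups overlapped, with log2 fold changes of 0.04 for SLC25A39 (adjusted p = 0.66, edgeR) and -0.05 for SLC25A38 (adjusted p = 0.60, edgeR).

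SLC25A40, the close relative of SLC25A39, had 4.20, 3.96 and 4.0 FPKM in BR-shSPANXB1 cells, against 3.44, 3.49 and 3.60 FPKM in BR-shCON cells. No sample crossed over, and the log2 fold change of 0.19 (SE 0.0837) did not pass (adjusted p = 0.13, edgeR). SLC25A15, the ornithine carrier of the urea cycle, had 6.68, 6.58 and 7.08 FPKM in BR-shSPANXB1 cells, against 7.18, 7.37 and 7.62 FPKM in BR-shCON cells, with a log2 fold change of -0.14 (adjusted p = 0.19, edgeR). SLC25A26, which imports S-adenosylmethionine for methylation inside the mitochondrion, had 19.0, 19.7 and 18.0 FPKM in BR-shSPANXB1 cells, against 14.3, 18.1 and 16.8 FPKM in BR-shCON cells, with a log2 fold change of 0.16 (adjusted p = 0.16, edgeR) and overlapping groups, and shares 15.5% of its exonic bases with LRIG1 on the opposite strand. SLC25A20, the carnitine/acylcarnitine carrier, averaged 7.26 ± 0.329 FPKM in BR-shSPANXB1 cells and 6.77 ± 0.502 FPKM in BR-shCON cells (SD, n = 3 each).

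Of the 10 tested carriers of cofactors, nucleotides and iron, SLC25A36 fell, none rose, and 8 were negative, with a median log2 fold change of -0.03. That is 10.0% called, beside 13.8% of all genes, or 6.98% for those called lower. SLC25A36, a pyrimidine nucleotide carrier at chr3:140941830-140980961 on the plus strand, had 23.4, 21.9 and 23.9 FPKM in BR-shSPANXB1 cells, against 24.3, 25.9 and 25.8 FPKM in BR-shCON cells. The groups lay apart by less than 1 FPKM at their nearest samples. The log2 fold change was -0.15 (SE 0.0448, adjusted p = 0.023, edgeR). The call was lost with DESeq2 (adjusted p = 0.052), with limma (adjusted p = 0.13, on log2(FPKM + 0.1)) and without BR-shSPANXB1 replicate 2 (adjusted p = 0.16), BR-shCON replicate 2 (adjusted p = 0.066) or BR-shCON replicate 3 (adjusted p = 0.065). SLC25A33, the other pyrimidine nucleotide carrier, had a log2 fold change of -0.15 as well (adjusted p = 0.17, edgeR), with 6.33, 5.83 and 6.21 FPKM in BR-shSPANXB1 cells, against 6.92, 6.96 and 6.31 FPKM in BR-shCON cells, so that the groups just overlapped.

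The mitoferrins import iron for heme and iron-sulfur clusters. SLC25A37 (mitoferrin-1) had 66.5, 67.7 and 68.1 FPKM in BR-shSPANXB1 cells, against 68.6, 69.6 and 67.2 FPKM in BR-shCON cells, with a log2 fold change of -0.03 (adjusted p = 0.62, edgeR). SLC25A28 (mitoferrin-2) had 18.0, 19.98 and 18.4 FPKM in BR-shSPANXB1 cells, against 16.9, 16.9 and 15.0 FPKM in BR-shCON cells, with a log2 fold change of 0.19 (SE 0.0736, adjusted p = 0.084, or 0.023 under the replicate block, edgeR). Only SLC25A28, of this pair, had groups that did not overlap. It gave 21.8% ± 0.863 of the mitoferrin FPKM in BR-shSPANXB1 cells and 19.2% ± 0.806 in BR-shCON cells (SD, n = 3 each, two-sided exact permutation p = 0.1). SLC25A32, the folate and FAD carrier, had 27.2, 26.1 and 26.6 FPKM in BR-shSPANXB1 cells, against 28.4, 28.8 and 28.9 FPKM in BR-shCON cells, with no overlap. Its log2 fold change was -0.12 (SE 0.0458, adjusted p = 0.076, or 0.015 under the replicate block, edgeR), and 80.8% of its exonic bases also belong to another gene model, mostly AC012213.5 on the same strand.

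For SLC25A16, a carrier tied to coenzyme A, the measures differed in size. Its log2 fold change on counts was -0.05, while the log2 ratio of its mean FPKM was -0.17. The groups overlapped at 9.28, 8.43 and 9.43 FPKM in BR-shSPANXB1 cells, against 10.6, 10.8 and 9.25 FPKM in BR-shCON cells.

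Among the 7 tested uncoupling-protein-like carriers, orphans and others, SLC25A27 rose and none fell, with a median log2 fold change of 0.04. That is 14.3% called, beside 13.8% of all genes, or 6.82% for those called higher. SLC25A27 (UCP4), known from brain and neurons, lies at chr6:46652915-46678193 on the plus strand. It had 2.91, 2.79 and 3.14 FPKM in BR-shSPANXB1 cells, against 2.14, 2.06 and 2.48 FPKM in BR-shCON cells. The groups did not overlap, at 116 to 129 counts in BR-shSPANXB1 cells and 86 to 104 counts in BR-shCON cells, and the log2 fold change was 0.38 (SE 0.122, adjusted p = 0.038, edgeR). The call was lost with DESeq2 (adjusted p = 0.16) and without each replicate in turn except BR-shCON replicate 3 (adjusted p of 0.056 to 0.15).

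SLC25A46, an outer-membrane protein that acts in mitochondrial shape and fission, had 21.8, 21.5 and 21.6 FPKM in BR-shSPANXB1 cells, against 20.6, 19.7 and 22.1 FPKM in BR-shCON cells. SLC25A30 (KMCP1) had 10.4, 11.2 and 10.4 FPKM in BR-shSPANXB1 cells, against 10.6, 10.4 and 11.0 FPKM in BR-shCON cells. Neither separated the groups, and the log2 fold changes were 0.04 for SLC25A46 (adjusted p = 0.60, edgeR) and -0.01 for SLC25A30 (adjusted p = 0.94, edgeR).

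Across the family, 12 of the 39 tested members had FPKM values that did not overlap between the groups, with 5 higher in BR-shSPANXB1 cells and 7 lower. Over all genes tested, 28.6% did not overlap (higher in BR-shSPANXB1 cells for 16.9% and lower for 11.8%). SLC25A24, SLC25A25, SLC25A27, SLC25A28 and SLC25A40 were the higher ones. SLC25A3, SLC25A4, SLC25A12, SLC25A15, SLC25A23, SLC25A32 and SLC25A36 were the lower ones.

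The remaining 8 members were under the expression filter. SLC25A2, SLC25A18, SLC25A31, SLC25A41, SLC25A48 and SLC25A52 had under 10 counts in every sample. SLC25A34 had 14 to 28 counts and SLC25A45 had 13 to 22 counts, and neither was tested. Among tested members 6 share at least 1 stretch of 100 bases with a transcript of another gene, including SLC25A10 (36.9% of such stretches), SLC25A32 (63.7%) and SLC25A33 (12.3%). SLC25A5, SLC25A6, SLC25A23, SLC25A25, SLC25A27 and SLC25A36 share none.

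The hairpin's target was compared with the carriers because a hairpin can also act on transcripts it resembles. The capitals show the whole target sequence of 21 bases, which lies in SPANXB1 on chromosome X.
shSPANXB1: GAGGAGGAGGAATTCATAGAA
It matched none of the 376 annotated transcripts of the members in full, and no gene other than SPANXB1. Partial matches were not searched.

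Genes that work with the carriers were examined from 9 lists of 104 genes, of which 98 were tested. Of these 8 rose and 5 fell, which is 13.3% beside the 13.8% of all genes, and the median of their log2 fold changes was -0.01. Under the replicate block 14 were higher and 10 lower, in a fit that called 25.7% of all genes.

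The carnitine shuttle carries fatty acids to the matrix with the help of SLC25A20. Its list had 3 of 7 tested genes higher and 6 of 7 positive, and the middle value of the log2 fold changes was 0.16. The share called, 42.9%, stands beside the 13.8% of all genes, or 6.82% for those called higher. Among all genes tested, 5728 were positive and 5705 negative. Whether this short list moved as a set was not tested. CRAT, which moves acetyl groups between coenzyme A and carnitine, had 4.39, 4.10 and 3.56 FPKM in BR-shSPANXB1 cells, against 2.59, 2.84 and 2.61 FPKM in BR-shCON cells, with a log2 fold change of 0.57 (SE 0.111, adjusted p = 0.00068, edgeR). CPT1A, the entry enzyme of the shuttle, averaged 10.6 ± 0.400 FPKM in BR-shSPANXB1 cells and 9.40 ± 0.553 FPKM in BR-shCON cells (SD, n = 3 each), with a log2 fold change of 0.19 (adjusted p = 0.016, edgeR). CPT1B, its muscle form, averaged 8.37 ± 0.737 FPKM in BR-shSPANXB1 cells and 7.01 ± 0.145 FPKM in BR-shCON cells, with a log2 fold change of 0.24 (adjusted p = 0.041, edgeR). The CPT1B value is uncertain, since 66.4% of its exonic bases are shared with CHKB-CPT1B. None of these genes overlapped between the groups, but the calls for CPT1A and CPT1B were lost with DESeq2 (adjusted p = 0.051 for CPT1A and 0.14 for CPT1B) and with limma (adjusted p = 0.13 for CPT1A and 0.062 for CPT1B).

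Channels and calcium proteins gave 1 call each way. The shares called, 7.69% and 11.1%, stand beside the 13.8% of all genes. VDAC1, the main pore of the outer membrane for ATP and metabolites, had 183, 173 and 177 FPKM in BR-shSPANXB1 cells, against 204, 206 and 197 FPKM in BR-shCON cells. It fell, with a log2 fold change of -0.20 (SE 0.0388, adjusted p = 0.00055, edgeR), and was the 1 call among 13 tested channels and carriers outside the family. SLC8B1, the exchanger that lets calcium out of the matrix, had 48.8, 47.3 and 47.5 FPKM in BR-shSPANXB1 cells, against 43.1, 42.5 and 40.3 FPKM in BR-shCON cells. It rose, with a log2 fold change of 0.17 (SE 0.0419, adjusted p = 0.0068, edgeR), as the 1 call among 9 genes of mitochondrial calcium handling.

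Among SLC25 members known by other symbols, MTCH1 fell (log2 fold change -0.12, adjusted p = 0.041, edgeR). It was 1 of 3 tested, or 33.3%, beside 13.8% of all genes. MTCH1, an outer-membrane member, averaged 194 ± 4.66 FPKM in BR-shSPANXB1 cells and 210 ± 4.15 FPKM in BR-shCON cells (SD, n = 3 each). MTCH2 and UCP2 did not pass, with log2 fold changes of -0.07 and 0.02, and UCP1 and UCP3 were under the filter. The TIM22 route, which inserts carrier proteins into the inner membrane, gave no call among 13 genes with edgeR without the replicate block. In that fit 13.8% of all genes were called. Of the 13 genes 1 had an unadjusted p under 0.05 and 11 were negative, with a median log2 fold change of -0.06.

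Enzymes of the matrix and the cytosol that use the carried metabolites were examined in a pair of lists. IDH3A, a subunit of isocitrate dehydrogenase in the citrate cycle, had 25.8, 27.6 and 24.5 FPKM in BR-shSPANXB1 cells, against 22.9, 22.8 and 24.1 FPKM in BR-shCON cells (log2 fold change 0.16, adjusted p = 0.028, edgeR), as 1 of 15 tested genes of its list. In the list of glutamine, proline, ornithine and glycine enzymes 2 of 13 rose. The shares called, 6.67% and 15.4%, stand beside the 13.8% of all genes. MTHFD2, the folate enzyme of the matrix, averaged 74.4 ± 1.85 FPKM in BR-shSPANXB1 cells and 64.4 ± 2.37 FPKM in BR-shCON cells (SD, n = 3 each, log2 fold change 0.18, adjusted p = 0.0022, edgeR). OAT, ornithine aminotransferase, had 104, 112 and 113 FPKM in BR-shSPANXB1 cells, against 89.9, 98.2 and 103 FPKM in BR-shCON cells, with the nearest samples of the groups close together and a log2 fold change of 0.155 (adjusted p = 0.021, edgeR). Genes on the opposite strand share 38.9% of the exonic bases of IDH3A and 33.2% of those of MTHFD2.

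Of 14 iron-sulfur cluster and heme genes 1 rose and 1 fell, which is 14.3% beside the 13.8% of all genes. GLRX5, which passes on iron-sulfur clusters, had 65.7, 65.2 and 63.1 FPKM in BR-shSPANXB1 cells, against 77.2, 80.8 and 68.1 FPKM in BR-shCON cells (log2 fold change -0.24, adjusted p = 0.0040, edgeR). IBA57, a late factor of cluster assembly, had 1.69, 1.70 and 1.77 FPKM in BR-shSPANXB1 cells, against 1.30, 1.32 and 1.40 FPKM in BR-shCON cells (log2 fold change 0.35, adjusted p = 0.0089, edgeR). Neither gene overlapped between the groups. Genes on the opposite strand share 18.2% of the exonic bases of GLRX5.

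Among 11 regulators of mitochondrial biogenesis 2 fell, which is 18.2% beside 13.8% of all genes, or 6.98% for those called lower. The log2 fold change was negative for 10, with a median of -0.04. Its median size was 0.04, against 0.08 over all genes tested. PPARGC1B, a coactivator, had 1.72, 1.90 and 1.54 FPKM in BR-shSPANXB1 cells, against 2.06, 1.99 and 2.23 FPKM in BR-shCON cells (log2 fold change -0.30, adjusted p = 0.015, edgeR). TFAM, which packs and transcribes mitochondrial DNA, had 99.8, 105 and 107 FPKM in BR-shSPANXB1 cells, against 103, 128 and 116 FPKM in BR-shCON cells (log2 fold change -0.18, adjusted p = 0.0038, edgeR). The FPKM values of TFAM overlapped between the groups, and its call was lost with limma (adjusted p = 0.22).

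VDAC1, SLC8B1, MTHFD2 and CRAT passed under every alternative in which they were tested. With DESeq2 the calls for IDH3A (adjusted p = 0.078) and IBA57 (adjusted p = 0.056) were lost. With limma on log2(FPKM + 0.1) MTCH1 (adjusted p = 0.10), IDH3A (0.11), OAT (0.082), GLRX5 (0.054), IBA57 (0.085) and PPARGC1B (0.17) no longer passed. Leaving out single samples also ended calls in edgeR, with the adjusted p given for each. MTCH1 passed without BR-shCON replicate 3 and with no other sample left out (adjusted p of 0.057 to 0.15), and CPT1B without BR-shSPANXB1 replicate 2 and with no other (0.065 to 0.23). IDH3A was lost without BR-shSPANXB1 replicate 2 (0.19), BR-shCON replicate 1 (0.11) or BR-shCON replicate 2 (0.071). OAT was lost without BR-shSPANXB1 replicate 2 (0.097), BR-shSPANXB1 replicate 3 (0.089) or BR-shCON replicate 1 (0.16). CPT1A was lost without BR-shSPANXB1 replicate 1 (0.063), BR-shCON replicate 2 (0.056) or BR-shCON replicate 3 (0.052). PPARGC1B was lost without BR-shSPANXB1 replicate 1 (0.073) or BR-shSPANXB1 replicate 3 (0.078).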

How the data were processed

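Poly(A) RNA of 6 samples was sequenced as paired reads of 100 bases on the BGISEQ-500, per the labels. No strand-marking step is named for the libraries. Groups were taken from titles and cell types, whereas the extraction protocol in the labels names the untransduced BR line and its MDA-MB-231 parent. The authors deposited estimated counts, not normalized, of which 14.5% were not whole, and FPKM, scaled by the authors for transcript length and mapped fragments. The build GRCh38.p12 and the aligners Bowtie2 2.2.5 and HISAT2 2.0.4 stand in the submitters' processing notes. What counted the reads, and on which annotation: not given in the sources used here. TPM columns were not used.

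Counts were rounded and tested with edgeR 4.0.16 in R 4.3.3 (robust quasi-likelihood fit after TMM scaling, p-values adjusted by Benjamini-Hochberg) over the 11439 genes that averaged at least 1 FPKM. A two-sided exact permutation test was run for single genes, on log2(FPKM + 0.1), and for shares. Alternatives were DESeq2 1.42.0, median-of-ratios size factors, no filter, a mean FPKM of at least 5, limma 3.58.1 on log2(FPKM + 0.1) and log2(FPKM + 1), the replicate block and leaving out each sample. The scripts were tested on simulated data. Totals ran from 16294462 to 16666167 counts per sample, so depth was even, and precision comes from 3 samples a group, the variance that edgeR shares between genes and counting error in low genes. Within a group, pairs of samples differed by 2.1 to 3.31 times counting error (chi-square per degree of freedom), so no pair looked like a single library deposited again.

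After subtraction of group means, samples with the same number correlated across genes at 0.106, 0.155 and 0.154. Each exceeded 0.1, while samples with unlike numbers correlated at -0.107 to -0.034. The numbers were treated as pairs in the replicate block only, although no source says what a number shares. Calls and adjusted p-values given without mention of the block come from fits that left the samples unpaired. The study describes replicates as different batches of cells, but not in its RNA-seq methods, so p-values may measure technical spread only.

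The members and lists were chosen with earlier results of these data known. Members named with values were all that passed, the 8 highest by mean FPKM and the 2 highest of each class, and of each companion list up to 4 that passed. SLC25A4, SLC25A10, SLC25A12, SLC25A13, SLC25A15, SLC25A16, SLC25A17, SLC25A20, SLC25A21, SLC25A22, SLC25A26, SLC25A28, SLC25A33, SLC25A34, SLC25A40, SLC25A42, SLC25A45, SLC25A51, SLC25A53, MTCH2 and UCP2 were added after their values were seen. The single values of 1 tested member are not reported here, though counts, sums and medians include it. SLC25A47 was listed and not analysed here. GENCODE v29 gave positions on GRCh38, matched by Entrez number for 47 of 47 members.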

Additional observations from a re-analysis of the deposited data

How the results depend on the processing

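SLC25A23 (log2 fold change -0.40 to -0.30) and SLC25A25 (0.38 to 0.48) passed under every alternative run. Members higher in BR-shSPANXB1 cells numbered 1 with DESeq2, 1 at a mean FPKM of at least 5, where SLC25A27 was not tested, and 1 to 2 without single samples. Members lower numbered 1 with DESeq2, 1 with either limma fit and 1 to 2 without single samples. No alternative brought a member past the criteria of the study. With the replicate block, which treats the numbers as pairs, 4 members were higher and 5 lower. In that fit 14 companion genes were higher and 10 lower, and 2935 genes were called, or 25.7% of all genes. Companion genes higher numbered 4 with DESeq2, 3 with either limma fit and 5 to 7 without single samples, and those lower 1 with either limma fit and 3 to 5 without single samples. Of all genes, 1579 were called, against 1020 with DESeq2, 866 with limma on log2(FPKM + 0.1), 873 with limma on log2(FPKM + 1) and 1041 (without BR-shSPANXB1 replicate 2) to 1466 without single samples. The split was 780 higher and 799 lower in BR-shSPANXB1 cells, against 516 and 350 with a pseudocount of 0.1 and 522 and 351 with 1.

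With limma the sign turned for SLC25A51 (0.0026 with a pseudocount of 0.1, 0.0028 with 1), SLC25A1 (0.0004 with both), SLC25A30 (0.0027 and 0.0025) and SLC25A5 (0.0058 with both). Without single samples the log2 fold change crossed 0 for SLC25A1 (-0.0812 to 0.0174), SLC25A5 (-0.0542 to 0.0034), SLC25A6 (-0.0080 to 0.0737), SLC25A10 (-0.1972 to 0.0141), SLC25A17 (-0.0738 to 0.0439), SLC25A22 (-0.0991 to 0.0171), SLC25A30 (-0.0358 to 0.0224), SLC25A42 (-0.0844 to 0.0340) and SLC25A51 (-0.0903 to 0.0848). None of these passed in any fit, and the cause was not tested. For genes of few counts, depth limits what can be seen: SLC25A27 rests on 86 to 129 counts a sample.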
